A study of Oryza sativa with 4 samples.

Results

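Transcripts of 10 nuclear genes of photosynthetic carbon fixation were examined in rice leaves. They are the Rubisco small subunit genes RBCS2 to RBCS5, Rubisco activase, and the Calvin cycle enzymes GAPA, GAPB, plastid FBPase, SBPase and PRK. Members were chosen by their identifiers in the Rice Annotation Project, and all 10 were found among the 37858 genes of the expected count table. Fully developed leaves of the cultivar Nipponbare, taken at 55 days after sowing (DAS), were compared between CS plants, grown from control seeds matured at 25 °C, and HDS plants, grown from heat-developed seeds matured at 30 °C. Both groups of plants then grew under the same natural conditions, so that the temperature during grain filling is the treatment. Each treatment had 2 biological replicates, a replicate in this study being 1 plant. P-values rest on a spread that edgeR and DESeq2 estimate from these libraries partly across genes. They therefore need not follow the standard errors, which use each gene's own spread between 2 libraries per treatment.

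Rubisco fixes carbon dioxide onto ribulose bisphosphate in the chloroplast stroma. Its large subunit is encoded in the plastid genome, while its small subunits come from a nuclear gene family (RBCS) whose copies encode very similar proteins. Rubisco activase removes inhibitory sugar phosphates from the active sites. The product of fixation is reduced by a glyceraldehyde phosphate dehydrogenase built from the GAPA and GAPB subunits. FBPase and SBPase, which remove a phosphate from fructose and sedoheptulose bisphosphate, and PRK (phosphoribulokinase) then return carbon to ribulose bisphosphate. In leaves these genes are among the most highly transcribed, and their transcripts respond to light, sugars and the time of day.

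The libraries held between 15444235 and 17298384 expected counts, and the 10 genes together took between 2.71% and 3.79% of them. The lowest count of any of these genes in any library was 11560. Of regulators named in the study, the stomatal genes OsSPCH1, OsSPCH2 and OsMUTE had 0 counts in all 4 libraries, and OsFAMA between 24 and 31. The axillary meristem genes OsMOC1 and OsLAX2 had between 2 and 8 and between 48 and 66 counts. RBCS2 to RBCS5, small subunit genes of green tissue, took between 2.06% and 3.07% of all counts. Their names come from the rule that chose them, and no separate list of leaf markers was used. In bulk leaf RNA, fewer cells of a type and less RNA per cell cannot be told apart. CS replicate 1 stood apart from the rest in many of the values below. It was the highest library for 8 of the 10 genes, for 33.4% of all 22184 genes kept by edgeR's filterByExpr function, and for 69.6% of the 112 genes at least as abundant as the lowest of the 10. Fold changes without that library are given beside those with it.

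By the study's criteria, that is edgeR's exact test at P under 0.05 without adjustment together with a change of 0.37 or more on the log2 scale, 2 of the 10 genes were lower in HDS plants and 0 were higher. Both are small subunit genes, RBCS2 and RBCS4. Of all 29698 genes with at least 1 count, 7.88% met the same criteria, 4.18% being higher and 3.7% lower in HDS plants. With Benjamini-Hochberg adjustment over all genes, 0 of the 10 had an adjusted P under 0.05 in edgeR's exact test, where 2.38% of all genes did, and 0 in edgeR's quasi-likelihood test, where 0.699% of the genes kept by filterByExpr did. At an unadjusted P under 0.05 there were 2 in the exact test, against 2353 of the 29698 genes. In the quasi-likelihood test there was 1, against 2047 of the 22184 genes kept by filterByExpr. DESeq2 gave 2 at an unadjusted P under 0.05. With the limit of 0.37 as well it gave 2, against 1751 of the 29698 genes. An adjusted P under 0.05 in DESeq2 was reached by 0 of the 10, against 566 of the 22184 genes. The log2 fold change of HDS over CS plants was negative for 9 genes and positive for 1, with a median of -0.19 against 0.01 over all genes with at least 1 count.

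Levels are given as CPM, expected counts scaled to a common library size with edgeR's TMM factors, which adjust for depth and for a few abundant genes taking more of a library. They are not divided by transcript length, so that levels are compared between libraries and not between genes.

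RBCS2 (Os12g0274700, chromosome 12) had the largest difference of the 10 genes. Its level was 8612 CPM in CS replicate 1 and 3949 CPM in CS replicate 2, and 2766 and 2949 CPM in HDS replicates 1 and 2. Both HDS libraries lay below both CS libraries, and the HDS libraries were close to each other whereas the CS libraries were not. CS plants had a mean of 6281 ± 3297 CPM (SD, n = 2), and HDS plants one of 2858 ± 129 CPM (SD, n = 2), which was 2.20-fold lower. On the log2 scale the change was -1.14 (standard error 0.56), with P = 0.00150 and an adjusted P of 0.0608 by edgeR's exact test with Benjamini-Hochberg adjustment. The adjusted P was 0.405 in edgeR's quasi-likelihood fit. Without CS replicate 1 the log2 fold change was -0.47, with P = 0.00476 and an adjusted P of 0.130 by the same exact test, and without CS replicate 2 it was -1.61. The direction thus held without either CS library, but the size of the difference depended on which was kept.

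RBCS3 (Os12g0291100, chromosome 12) did not follow RBCS2. Its level was 12765 and 9149 CPM in CS replicates 1 and 2, and 9304 and 11163 CPM in HDS replicates 1 and 2. The treatments overlapped, and both HDS libraries lay between the CS libraries. A log2 fold change of -0.10 resulted (standard error 0.27, P = 0.678 by edgeR's exact test), and it was 0.16 without CS replicate 1 and 0.03 without HDS replicate 1.

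RBCS4 (Os12g0292400, chromosome 12) met the study's criteria by a small margin. It had 2584 and 1826 CPM in the CS libraries against 1536 and 1673 CPM in the HDS libraries. The HDS libraries were the lowest 2 of the 4, with HDS replicate 2 closer to CS replicate 2 than the CS libraries were to each other. This gave a log2 fold change of -0.46 (standard error 0.26), with P = 0.0453 and an adjusted P of 0.603 by edgeR's exact test with Benjamini-Hochberg adjustment. It no longer met the criteria without CS replicate 1, where the log2 fold change was -0.19 (P = 0.259 by edgeR's exact test), without HDS replicate 1 (-0.40, P = 0.264 by the same edgeR test) or without HDS replicate 2 (-0.52, P = 0.146 by the same edgeR test). With libraries scaled by total counts only, it had P = 0.0738 in edgeR's exact test, above the limit. The unadjusted P was 0.0893 in edgeR's quasi-likelihood test. Without CS replicate 2 the log2 fold change was -0.71.

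RBCS5 (Os12g0291400, chromosome 12) had 8509 and 6996 CPM in the CS libraries against 6333 and 7577 CPM in the HDS libraries. The treatments overlapped, since HDS replicate 2 lay above CS replicate 2. The log2 fold change was -0.16 (standard error 0.19, P = 0.458 by edgeR's exact test), and without CS replicate 1 it was -0.01.

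**Figure D1:**
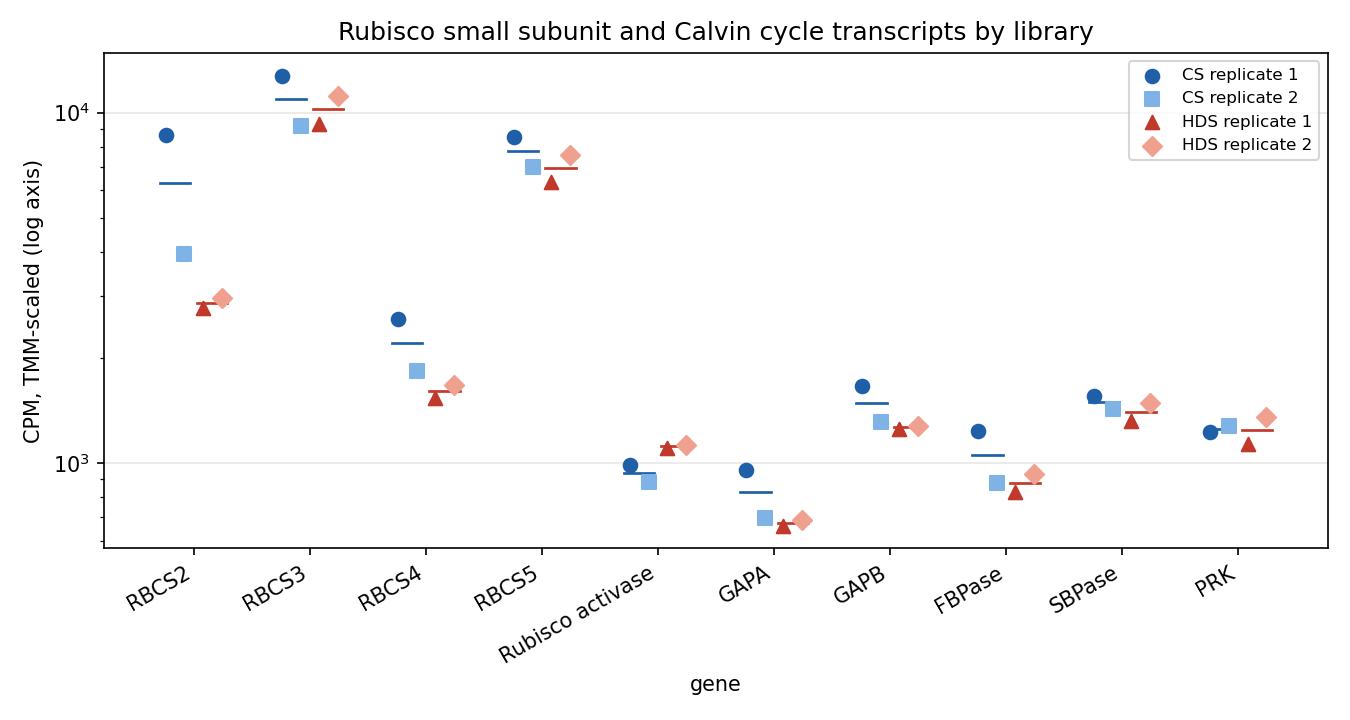
Level of each of the 10 genes in CPM, scaled by TMM, on a log axis. Points are single libraries, 2 CS in blue and 2 HDS in red, and short lines are treatment means. RBCS2 ranges from 2766 to 8612 CPM with both HDS points lowest, and Rubisco activase is the only gene with both HDS points above both CS points.

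The copies of the small subunit gene share sequence, and RSEM, the program behind the expected counts, splits reads that match several genes. The expected counts of RBCS2 to RBCS5 were not whole numbers in any library, as split reads give. The sum of these 4 genes alone was whole within 0.015 in 1 library, CS replicate 2, and not in the other 3. With 4 further rows of chromosome 12 (Os12g0274750, Os12g0291066, Os12g0291733 and Os12g0292301), listed next to or among the RBCS genes and chosen after their values were seen, the sum was whole within 0.015 in all 4. The sum of all 8 rows was 480177 in CS replicate 1, 386133 in CS replicate 2, 361466 in HDS replicate 1 and 398701.99 in HDS replicate 2, the last being whole within rounding to the second decimal. The 4 further rows held between 1.18% and 1.53% of these sums, so that nearly all counts of the group lay in the RBCS genes themselves. How reads were divided among the RBCS copies was not tested, and the level of a single copy depends on it.

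The summed count is not affected by a division within the family. RBCS2 to RBCS5 together had 32469 and 21922 CPM in CS replicates 1 and 2, and 19939 and 23362 CPM in HDS replicates 1 and 2. The treatments overlapped, and CS replicate 1 was the highest. CS plants had a mean of 27195 ± 7458 CPM (SD, n = 2), against 21650 ± 2421 CPM (SD, n = 2) for HDS plants. Fitted as 1 gene, the sum had a log2 fold change of -0.33 (standard error 0.31), and edgeR's exact test gave P = 0.187. Without CS replicate 1 it was -0.02, and without CS replicate 2 it was -0.61. The size of the difference in total small subunit transcripts therefore depended on which CS library was kept. Summed with the 4 further rows, the log2 fold change was -0.33 as well, and RBCS3 to RBCS5 without RBCS2 had -0.15 (P = 0.496 by edgeR's exact test).

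The make-up of the family differed between the libraries in a way that needs no scaling for depth. RBCS2 gave 26.5% and 18.0% of the family's expected counts in CS replicates 1 and 2, and 13.9% and 12.6% in HDS replicates 1 and 2. Both HDS shares lay below both CS shares, with means of 13.2 ± 0.886% (SD, n = 2) in HDS plants and 22.3 ± 6.01% (SD, n = 2) in CS plants. RBCS3 gave 39.3% and 41.7% in the CS libraries against 46.7% and 47.8% in the HDS libraries, so that its share was higher in both HDS libraries although its CPM was not. Since shares within a family sum to the whole, a lower share of RBCS2 raises the others. RBCS4 gave 7.96% and 8.33% in the CS libraries against 7.70% and 7.16% in the HDS libraries. RBCS5 gave 26.2% in CS replicate 1 and between 31.8% and 32.4% in the other 3 libraries. With 2 libraries per treatment an exact permutation test (two-sided) of a share cannot go below P = 0.333, so that no test of the shares was made.

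**Figure D2:**
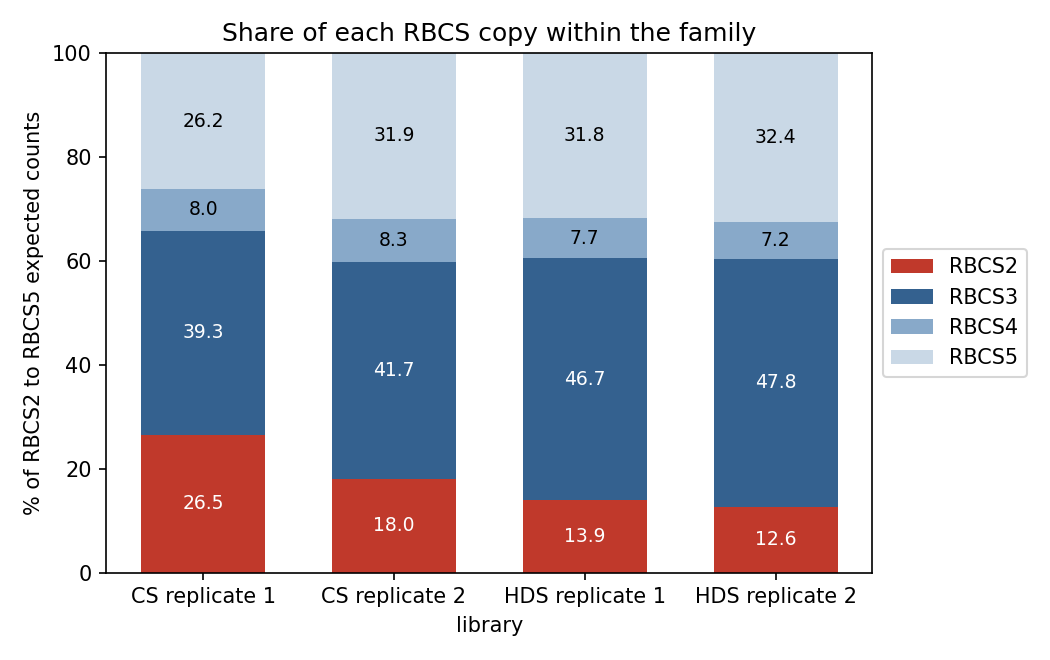
Share of each RBCS copy in the summed expected counts of RBCS2 to RBCS5, in percent, for each of the 4 libraries. The RBCS2 share is 26.5% and 18.0% in the CS libraries against 13.9% and 12.6% in the HDS libraries.

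Leaving RBCS2 out, the other copies kept closer proportions. RBCS3 gave 53.5% and 50.9% of the counts of RBCS3 to RBCS5 in the CS libraries against 54.2% and 54.7% in the HDS libraries. Both HDS shares of RBCS3 thus lay above both CS shares. RBCS5 gave between 35.7% and 38.9%, and its treatments overlapped. The share of RBCS4 was 10.8% and 10.2% in the CS libraries against 8.95% and 8.20% in the HDS libraries, the only one of these 3 shares in which both HDS libraries lay below both CS libraries. The ratio of RBCS2 to RBCS3 counts was 0.675 and 0.432 in the CS libraries against 0.297 and 0.264 in the HDS libraries.

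Rubisco activase (Os11g0707000, chromosome 11) was the only one of the 10 genes with a positive log2 fold change. The CS libraries held 14414 and 15277 counts of it, and the HDS libraries 19701 and 19008, all whole numbers. Scaled, these were 986 and 881 CPM in CS plants and 1101 and 1129 CPM in HDS plants. Neither HDS library overlapped the CS libraries, both being higher, and the HDS libraries were close to each other. HDS plants were 1.19-fold higher, a log2 fold change of 0.26 (standard error 0.08). For this edgeR's exact test gave P = 0.164 and an adjusted P of 0.967, so that the gene did not meet the study's criteria. The adjusted P was 0.729 by edgeR's quasi-likelihood test. Leaving out single libraries gave values between 0.16 and 0.34, the highest being without CS replicate 1. Set against the small subunits, there were 30.4 and 40.2 activase counts per 1000 RBCS counts in the CS libraries against 55.2 and 48.3 in the HDS libraries. Taken per 1000 counts of RBCS3 to RBCS5 only, the ratio was 41.3 and 49.0 in the CS libraries against 64.1 and 55.3 in the HDS libraries. In both ratios the HDS libraries lay above the CS libraries, and neither ratio was tested.

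The subunits of the chloroplast glyceraldehyde phosphate dehydrogenase had similar patterns. GAPA (Os04g0459500, chromosome 4) had 956 and 698 CPM in the CS libraries against 663 and 687 CPM in the HDS libraries. GAPB (Os03g0129300, chromosome 3) had 1658 and 1308 CPM in the CS libraries against 1252 and 1277 CPM in the HDS libraries. In both genes the HDS libraries lay below the CS libraries, but CS replicate 2 was nearer to the HDS libraries than to CS replicate 1. Log2 fold changes were -0.29 for GAPA (standard error 0.23, P = 0.175 by edgeR's exact test) and -0.23 for GAPB (standard error 0.17, P = 0.256 by the same edgeR test). Without CS replicate 1 the value was -0.05 for GAPA and -0.05 for GAPB, and without CS replicate 2 it was -0.52 and -0.41. The ratio of GAPA to GAPB counts was 0.577 in CS replicate 1 and between 0.529 and 0.538 in the other 3 libraries.

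Among the genes for regeneration of the acceptor, plastid FBPase (Os03g0267300, chromosome 3) had 1232 and 876 CPM in the CS libraries against 825 and 928 CPM in the HDS libraries. The treatments overlapped, with CS replicate 1 above the other 3 libraries. HDS over CS plants gave a log2 fold change of -0.27 (standard error 0.26, P = 0.243 by edgeR's exact test). Without CS replicate 1 it was -0.0023, and leaving out CS replicate 2 gave -0.51.

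SBPase (Os04g0234600, chromosome 4), whose enzyme has no counterpart in glycolysis, had 1553 and 1427 CPM in the CS libraries against 1319 and 1486 CPM in the HDS libraries. The treatments overlapped, and the log2 fold change was -0.09 (standard error 0.11, P = 0.642 by edgeR's exact test), against -0.03 without CS replicate 1. The ratio of FBPase to SBPase counts was 0.794 in CS replicate 1, 0.614 in CS replicate 2, and 0.625 in each HDS library. CS replicate 1 was thus apart from the other libraries in this ratio as well, and the other 3 were alike.

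PRK (Os02g0698000, chromosome 2), which makes the acceptor of carbon dioxide, had 1225 and 1278 CPM in the CS libraries against 1132 and 1354 CPM in the HDS libraries. Both CS libraries lay between the HDS libraries. Of the 10 log2 fold changes, that of PRK was closest to 0, at -0.01 (standard error 0.13, P = 0.962 by edgeR's exact test), and its sign turned under other settings. Leaving out single libraries gave values between -0.14 and 0.11, with -0.04 without CS replicate 1. The expected counts of PRK were not whole, but with those of the row listed just before it, Os02g0697900, they summed to 18113, 22384, 20445 and 22942 in the 4 libraries. That row held between 142 and 221 counts per library, few beside the 17899 to 22800 counts of PRK. It was found by a search of all rows for decimals that complete those of PRK, so whole sums were the condition of that search.

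**Figure D3:**
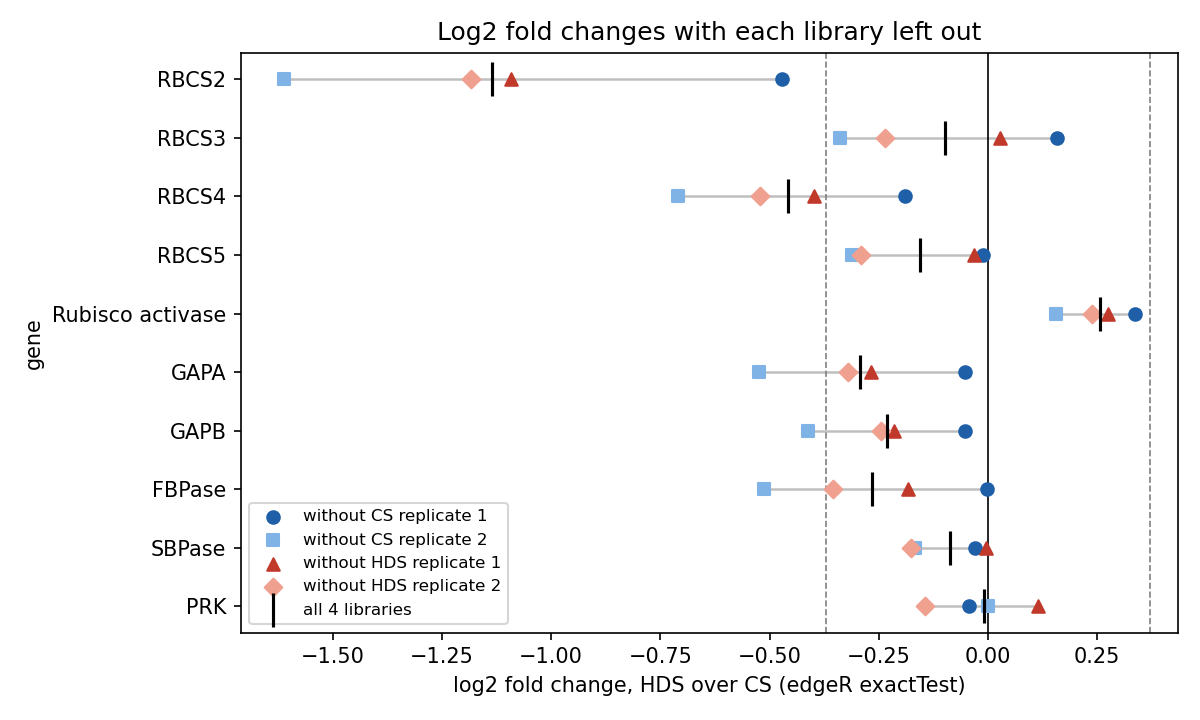
Log2 fold change of HDS over CS plants for each gene by edgeR's exactTest, with all 4 libraries (black bar) and with each library left out (coloured points); dashed lines mark the limit of 0.37 in either direction. The points without CS replicate 1 lie nearest to 0 or above it in most genes, while RBCS2 stays at -0.47 and Rubisco activase at 0.34.

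The CS libraries differed from each other by more than the treatments did, on the log2 scale, in 8 of the 10 genes, and the HDS replicates differed less than the CS replicates in 8. Without CS replicate 1 the log2 fold changes of RBCS2 and RBCS4 were -0.47 and -0.19, and without CS replicate 2 they were -1.61 and -0.71. Both HDS libraries lay outside the range of the CS libraries in 5 genes, below it in RBCS2, RBCS4, GAPA and GAPB and above it in Rubisco activase. Of the 22184 genes kept by filterByExpr, 40.5% had HDS libraries that did not overlap the CS libraries, 21.2% lying above and 19.3% below. Among the 112 genes at least as abundant as GAPA, the lowest of the 10 by mean CPM, this share was 52.7%, and 17.9% met the study's criteria, 4 being higher and 16 lower. These 112 genes include the 10 themselves and were chosen after the values were seen. Their median log2 fold change was -0.21, close to the -0.19 of the 10 genes.

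**Figure D4:**
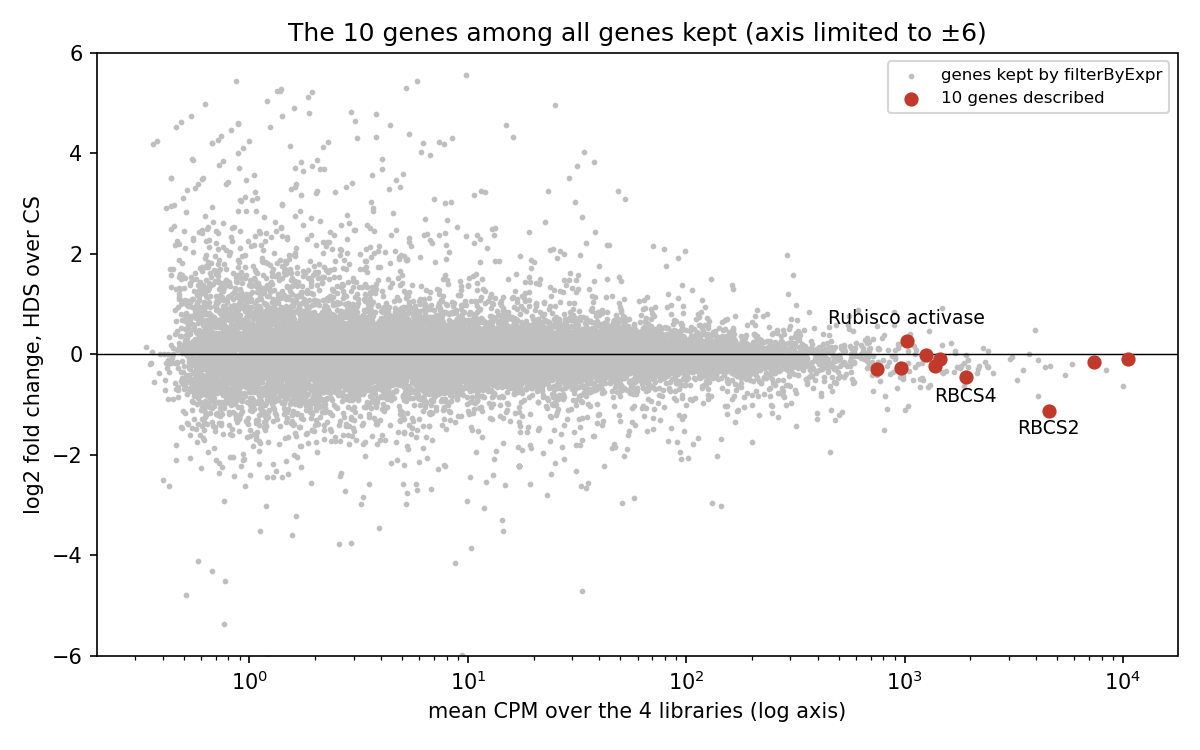
Log2 fold change of HDS over CS plants against mean CPM over the 4 libraries (log axis) for the genes kept by filterByExpr (grey) and the 10 genes described (red). The 10 genes lie at the abundant end, with RBCS2 at -1.14, and 27 genes beyond 6 log2 units are outside the axis.

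Other genes around carbon fixation were taken from short lists of identifiers. Names for them were not given in the sources used here, so the assignment of each list was not checked and its genes are given by identifier. Of 8 identifiers listed for other Calvin cycle enzymes, 0 met the study's criteria, against 7.88% of all genes with at least 1 count. Neither edgeR test gave any of the 8 an unadjusted P under 0.05 (0 of 8). The log2 fold changes ran from -0.39 to 0.26 with a median of -0.12. The highest was that of a gene with only 67 to 160 counts per library. DESeq2 also gave 0 by the same limits, but the count in edgeR's exact test depended on which CS library was kept. The most abundant, Os06g0133800, had 1214 and 1548 CPM in the CS libraries against 1526 and 1624 CPM in the HDS libraries, CS replicate 1 being the lowest here. Os02g0152400, listed as a further small subunit copy, had between 24 and 50 counts per library and a log2 fold change of 0.13 (standard error 0.51). Without CS replicate 1 the 8 values ran from -0.09 to 0.38, the highest being that of Os02g0152400. Of 6 identifiers listed for photorespiration, which begins with the oxygenase reaction of Rubisco, 0 met the criteria and 0 had an unadjusted P under 0.05 in either edgeR test. DESeq2 gave 0 as well, and here too the count in edgeR's exact test depended on which CS library was kept. Their log2 fold changes ran from -0.23 to 0.13, or from -0.11 to 0.10 without CS replicate 1, with a median of -0.13 over all libraries, and the most abundant, Os03g0786100, had 5454 and 4597 CPM in the CS libraries against 4154 and 4389 CPM in the HDS libraries.

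Identifiers listed for light-harvesting antenna proteins gave other values. All 5 met the criteria and were lower in HDS plants, as were 3.7% of all genes with at least 1 count. Their median log2 fold change was -1.21. In edgeR's exact test 5 had an adjusted P under 0.05, against 2.38% of all genes. In edgeR's quasi-likelihood test 0 did, against 0.699% of the genes kept by filterByExpr. In that test 5 had an unadjusted P under 0.05, against 2047 of those 22184 genes. This short list was chosen with earlier results of these data known. Values on the log2 scale were -2.80 for Os01g0720500, -1.51 for Os01g0600900, -1.21 for Os09g0346500, -1.08 for Os07g0558400 and -0.88 for Os03g0592500. The most abundant by mean CPM, Os07g0558400, had 1371 and 881 CPM in the CS libraries against 503 and 561 CPM in the HDS libraries. In each of the 5, both HDS libraries lay below both CS libraries, as in 19.3% of the genes kept by filterByExpr. CS replicate 1 was the highest library in all 5, as in 8 of the 10 carbon fixation genes. Without it all 5 met the criteria, but with smaller values on the log2 scale, -1.73 for Os01g0720500, -0.69 for Os01g0600900, -1.04 for Os09g0346500, -0.73 for Os07g0558400 and -0.70 for Os03g0592500. The lists were not tested against each other. OsDTH7, a heading date gene named in the study, had 288 and 254 CPM in the CS libraries against 203 and 234 CPM in the HDS libraries (log2 fold change -0.31, P = 0.0987 by edgeR's exact test, and -0.22 without CS replicate 1).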

How the data were processed

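Leaf RNA was sequenced in 2 CS and 2 HDS libraries. The expected counts that the authors deposited in 1 table are RSEM estimates for each gene of the rice build IRGSP-1.0, not scaled for depth. Bowtie2, Trimmomatic and FastQC 0.11.7 are named in the submitters' processing notes. The library kit differs between the sample labels (TruSeq Stranded) and the paper (NEBNext Ultra II Directional). Samples were grouped by their labels. Expected counts were rounded to whole numbers, and edgeR 4.0.16 or DESeq2 1.42.0 was used under R 4.3.3. The study's criteria were applied with exactTest after TMM and estimateDisp to all genes with at least 1 count, while glmQLFTest took only genes passing filterByExpr. P-values of edgeR were adjusted over all genes of a fit, and those of DESeq2 over the genes kept by its default filters. Standard errors come from the spread of log2 CPM (prior count 2) between the 2 replicates of each treatment. The code was run on simulated counts to check that known changes were recovered, which does not show how the tests behave on these libraries. The members, lists and tests were chosen with earlier results of these data known. Named were all 10 members and, of each list, genes that met the criteria, the most abundant gene and Os02g0152400. Alternatives were other normalizations, filters, tests, dispersion estimates and fold change limits, a replicate block, summed RBCS rows and the omission of single libraries, where the lone library of a treatment is taken to vary like the other treatment. The reference table gave a name to 0 of the identifiers used, so that names come from the rule that chose the genes and from the paper. Cell type markers set down by identifier alone were not used, and genome coordinates, sequences and promoter motifs were not analysed here.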

Additional observations from a re-analysis of the deposited data

How the results depend on the processing

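Of the 2 carbon fixation genes that met the study's criteria, 1 did so with total counts in place of TMM, with edgeR's quasi-likelihood test, with a replicate block and with a log2 fold change limit of 1, and 0 did so with Benjamini-Hochberg adjustment. Leaving out single libraries, the number lay between 1 and 5. It was between 0 and 3 for the other Calvin cycle list and between 0 and 1 for the photorespiration list, the highest values being without CS replicate 2. The log2 fold change of RBCS2 to RBCS5 summed then lay between -0.61 and -0.022. PRK turned to 0.057 with total counts, and lay between -0.14 and 0.11 when single libraries were left out, and RBCS3 between -0.34 and 0.16. Of all genes, 707 met the criteria with adjusted P-values, 1333 with a limit of 1, and 1132 to 5430 on leaving out single libraries, against 2340 as reported. The 155 genes with an adjusted quasi-likelihood P under 0.05 became 724 with exactTest, 566 with DESeq2, 532 with the replicate block, and 64 to 2506 on leaving out single libraries. The causes were not tested. Same-numbered libraries did not deviate together (r = 0.00 across 22184 genes). This correlation compares a single difference per treatment, so it cannot decide whether the replicate numbers pair the samples. The sums with the 4 further rows or without RBCS2 were added after seeing the data.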
